A study of Rattus norvegicus with 16 samples.

Results

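This account covers the genes of programmed cell death in the rat cornea, namely the caspases, the Bcl2 family, the inhibitors of apoptosis proteins and a few of their partners. A probe set belonged to it when its single gene symbol began with Casp and a digit, with Bcl2 or with Birc, or was one of 16 further symbols such as *Bid*, *Mcl1*, *Xiap* and *Pycard*. This gave 51 of the 31042 probe sets tested, and 35 of the 14217 genes with a symbol. All 35 were tested, and 30 of them would pass a filter on low signal. *Bax*, *Pmaip1* and *Nlrp3* had no probe set with that symbol alone and were not analysed here. Male Wistar rats aged 12 to 16 weeks received 2 sutures in the stroma of the temporal cornea, placed 1.5 mm from the limbus, and topical drops 4 times per day for 2 days. The groups were naïve corneas, which had neither sutures nor drops, and sutured corneas given goat IgG, anti-*Vegf* antibody or dexamethasone (1 mg/ml), with 4 corneas and 4 arrays per group. The antibodies are labelled as 20 mg/ml, while the study's methods give the unit as µg/ml, and the labels call the first treatment an anti-IgG antibody. Every treated cornea was also sutured and no sutured cornea went without drops, so the wound, the drops and the agent cannot be told apart in a comparison with naïve corneas.

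Apoptosis runs through caspases, which are proteases that cut after aspartate. Initiator caspases are switched on by death receptors or by the apoptosome that *Apaf1* forms with cytochrome c, and they in turn cleave the executioners. The Bcl2 family decides whether the mitochondrial outer membrane is opened, with survival members such as *Bcl2* and *Mcl1*, pore formers such as *Bak1*, and BH3-only members that tip the balance. Inhibitors of apoptosis proteins bind caspases or their upstream complexes. A separate branch, the inflammatory caspases, matures interleukin-1β and opens gasdermin pores, with *Pycard* as the adaptor that carries *Casp1* to the inflammasome.

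The promoters of 26 of the 35 genes were found in the RefSeq table of assembly GRCr8, each from 250 bases before to 50 bases after a transcription start. The 4 shown here belong to the genes on which the results below turn. They are *Bcl2a1*, which had the largest rise in all sutured groups, *Casp1* and *Casp12*, which lie on either side of *Casp4*, and *Birc5*. Against naïve corneas *Birc5* was called higher with anti-*Vegf* and dexamethasone, and it was not called between anti-*Vegf* and IgG. The 4 promoters lie at chr8:98596556-98596855, chr8:10872580-10872879, chr8:10926938-10927237 and chr10:103571896-103572195, all on the forward strand, and capitals mark every match on either strand to the motifs described after them.
Bcl2a1: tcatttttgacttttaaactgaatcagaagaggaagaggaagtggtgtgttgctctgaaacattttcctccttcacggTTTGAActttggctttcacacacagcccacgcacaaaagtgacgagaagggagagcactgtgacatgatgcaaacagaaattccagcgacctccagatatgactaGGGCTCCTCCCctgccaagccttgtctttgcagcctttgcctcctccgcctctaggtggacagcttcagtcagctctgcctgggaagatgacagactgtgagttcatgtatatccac
Casp1: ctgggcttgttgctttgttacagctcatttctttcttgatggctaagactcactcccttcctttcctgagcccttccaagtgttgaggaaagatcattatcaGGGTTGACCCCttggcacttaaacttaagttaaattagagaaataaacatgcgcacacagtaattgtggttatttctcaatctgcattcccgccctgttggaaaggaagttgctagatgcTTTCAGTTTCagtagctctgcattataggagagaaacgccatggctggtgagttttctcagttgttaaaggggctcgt
Casp12: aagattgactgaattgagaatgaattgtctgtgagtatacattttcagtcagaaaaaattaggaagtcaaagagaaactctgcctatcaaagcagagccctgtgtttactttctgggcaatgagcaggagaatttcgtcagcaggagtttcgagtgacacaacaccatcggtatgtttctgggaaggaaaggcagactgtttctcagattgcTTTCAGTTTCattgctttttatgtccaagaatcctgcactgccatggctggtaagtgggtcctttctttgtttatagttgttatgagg
Birc5: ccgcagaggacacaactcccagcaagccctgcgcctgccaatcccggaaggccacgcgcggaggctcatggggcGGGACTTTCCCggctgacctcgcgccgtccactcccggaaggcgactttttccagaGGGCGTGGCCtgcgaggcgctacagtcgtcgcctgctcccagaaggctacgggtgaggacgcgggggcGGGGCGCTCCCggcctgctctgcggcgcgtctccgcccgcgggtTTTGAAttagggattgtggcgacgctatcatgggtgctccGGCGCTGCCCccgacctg

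GGGNNNNNCC, a loose form of the NF-κB site, was found on either strand in 15 of the 26 member genes (57.7%) and in 50.2% of all 27457 genes of the table. The full palindromic glucocorticoid response element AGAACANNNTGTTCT was found in 0 of the 26 and in 0.00728% of all genes. The next 2 motifs were chosen after the values and sequences had been seen. TTTGAA, the core of the cell cycle genes homology region, occurred in 7 members (26.9%, against 19.4% of all genes), and in *Birc5* it began 8 bases before the transcription start. TTTCNNTTTC, the core of the interferon-stimulated response element, occurred in *Casp1*, *Casp12* and *Cflar*, which is 11.5% of the 26 against 4.12% of all genes. In *Casp1* it began 28 bases and in *Casp12* 38 bases before the start, within a shared stretch of 14 bases, tgctttcagtttca. Matches to GGGNNNNNCC on both strands overlap each other in *Bcl2a1*, *Casp1* and *Birc5*, no match overlaps a different motif in the printed promoters, and the *Casp12* promoter held no match to GGGNNNNNCC. These are matches of letters, and binding was not measured.

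Values are log2 signals as deposited, and 1 unit is a doubling. Arrays had medians of 6.551 to 6.618 and hybridisation controls of 11.06 to 11.42. The 11 measured genes of corneal epithelium, with *Krt12* among them, had a summed signal of 136000 to 147000 on all arrays. Against naïve corneas *Krt14* was called higher in every sutured group, *Krt15* higher with IgG and *Dsg1* lower with dexamethasone. Relative to either antibody, *Aqp5* was higher and *Dsg1* lower with dexamethasone. Leukocyte genes were higher in every sutured group, with 10, 9 and 9 of 13 called in IgG, anti-*Vegf* and dexamethasone treated corneas and summed signals of 3600 to 4470 (naïve), 5710 to 8040, 6470 to 7200 and 6540 to 9000. Of 9 neutrophil genes 6 were called higher in each sutured group, and their summed signal went from 3080 to 3900 on naïve arrays to at least 11300 on sutured ones. Of 12 monocyte and macrophage genes 9, 8 and 7 were called higher in the same order of groups, and their summed signal was 2170 to 3260 on naïve, 5210 to 7670 on IgG, 5670 to 6400 on anti-*Vegf* and 6070 to 10100 on dexamethasone arrays. Relative to either antibody, *Lyz2* was higher and *Cd68* and *Ms4a7* lower with dexamethasone, and the list medians were −0.209 (IgG) and −0.0469 (anti-*Vegf*). Their mean log2 signal was 7.257 to 7.746 on dexamethasone and 7.214 to 8.097 on IgG arrays. Of 12 genes of cornified epithelium 8, 7 and 3 were called higher in the same order of groups. Their summed signal was 10600 to 12000 on naïve, 20300 to 28500 on IgG, 25000 to 29700 on anti-*Vegf* and 12200 to 18100 on dexamethasone arrays. With dexamethasone their median difference from naïve was 0.177, and their mean log2 signal (7.544 to 8.181) overlapped the naïve range (7.502 to 7.833). Relative to IgG and anti-*Vegf*, 6 and 5 of the 12 were lower with dexamethasone. Of 8 keratocyte genes 2, 5 and 2 were called lower, with summed signals of 47600 to 65800 (naïve), 40900 to 49200, 33600 to 45000 and 45700 to 48800. The part of these cells in the results below was not tested, and in bulk tissue fewer cells of a type and less RNA per cell cannot be told apart. The spike-in poly-A controls also differed between groups, at means of 7.22 (IgG), 7.02 (anti-*Vegf*), 5.19 (dexamethasone) and 5.11 (naïve). Either antibody group differed from dexamethasone and from naïve arrays (exact permutation test, 2-sided, p = 0.029 for each). Dexamethasone and naïve arrays differed by 0.08 (exact permutation test, 2-sided, p = 0.57). The part of these controls was not tested, either in the antibody comparisons with naïve corneas or in those with dexamethasone.

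Against naïve corneas, members of this group were called mostly in the upward direction. A DEG needed an adjusted p under 0.05 from limma, adjusted over all probe sets tested, and a fold change of at least 1.5. In IgG treated corneas 5 of the 35 genes were called higher and 1 lower, where 6.32% and 5.02% of all genes were. In anti-*Vegf* treated corneas 7 were higher and 2 lower (6.82% and 5.94% of all genes), and in dexamethasone treated corneas 5 were higher and 2 lower (8.19% and 4.45%). The median log2 difference of the 35 genes was 0.121, 0.135 and 0.048, beside −0.00708, −0.00673 and 0.00412 over all genes. *Bcl2a1*, *Casp4* and *Casp12* were called higher in all 3 groups and *Pycard* lower in all 3. The 3 comparisons share the naïve arrays and are not independent. With 6 reference genes as the scale, the all-gene median became −0.211, −0.272 and −0.217, and the members called higher and lower were then 3 and 3, 4 and 3, and 3 and 5. In total 6, 7 and 8 of the 35 members were called on that scale, beside 2284, 2779 and 2272 of all 14217 genes. Under that scale *Bok*, *Casp2*, *Bcl2l2*, *Bcl2* or *Bcl2l14* joined the lower side in at least 1 comparison where it had not been called, and no called member changed direction. The calls lost on that scale were *Casp1* (log2 0.43) and *Casp6* (0.58) with IgG, *Birc3* (0.38), *Birc5* (0.48) and *Casp6* (0.42) with anti-*Vegf*, and *Bid* (0.58) and *Casp12* (0.41) with dexamethasone. Leaving out dexamethasone array F26 left 4 of 7 calls in dexamethasone treated corneas.

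**Figure D1:**
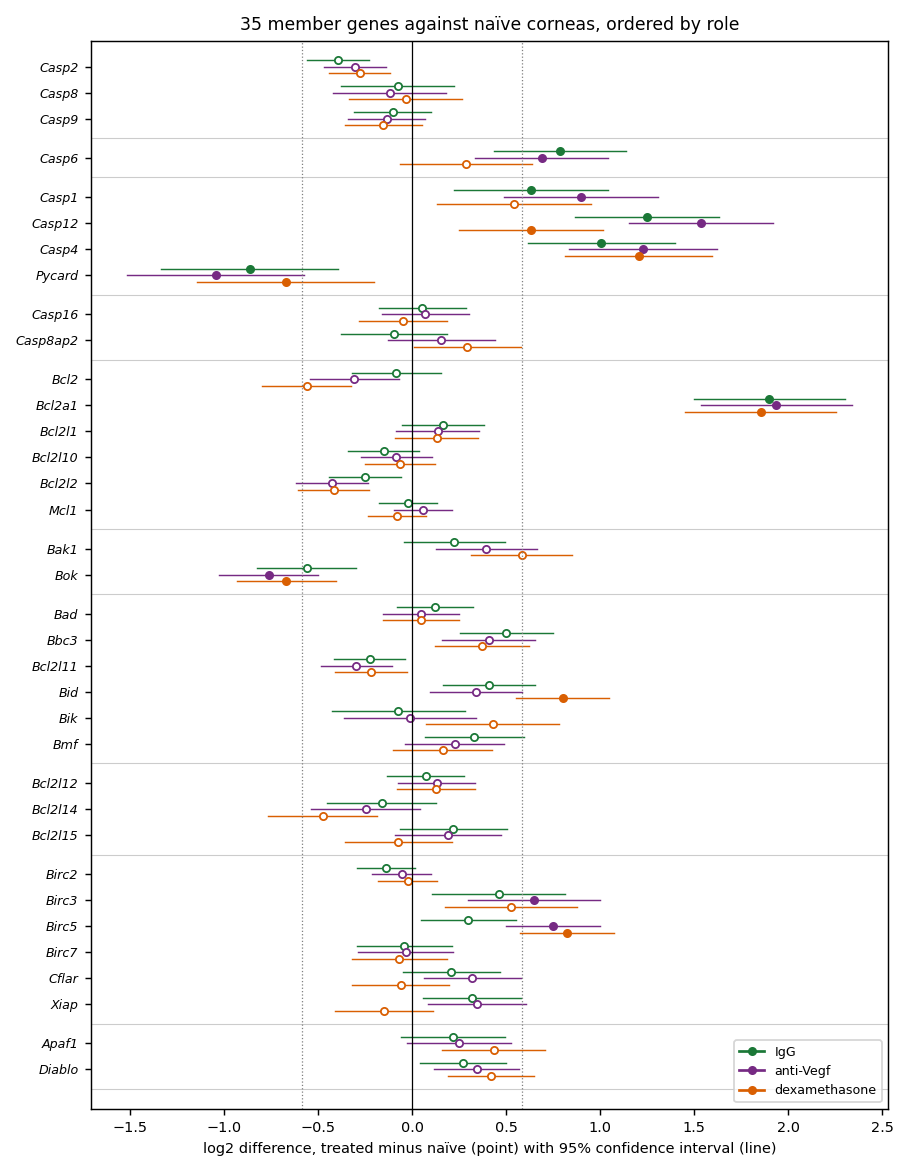
Log2 difference of each of the 35 member genes between treated and naïve corneas (point, 4 arrays per group) with its 95% confidence interval (line), by treatment and ordered by role from caspases at the top to *Apaf1* and *Diablo* at the bottom. Filled points were called and dotted lines mark 1.5-fold, and *Bcl2a1* lies farthest to the right at 1.85 to 1.94 in all 3 groups while *Pycard* lies farthest to the left with IgG and anti-*Vegf*.

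The inflammatory caspases held most of the caspase differences. *Casp1*, which matures interleukin-1β, *Casp4*, the sensor of intracellular lipopolysaccharide, and *Casp12*, an endoplasmic reticulum-associated relative, lie next to each other on chromosome 8 of GRCr8, with 1 noncoding and 0 protein-coding genes starting between each pair of neighbours. In all array lists below the order is 1, 2, 3 and 4 (naïve), F17, F19, F22 and F23 (IgG), F1x, F2, F6 and F7 (anti-*Vegf*) and F25, F26, F27 and F30 (dexamethasone). *Casp4* (1387818_at) read 7.98, 7.65, 7.49 and 7.73 on the naïve arrays, 9.11, 8.46, 8.42 and 8.89 on the IgG arrays, 8.87, 8.94, 9.01 and 8.95 on the anti-*Vegf* arrays and 8.40, 9.43, 8.90 and 8.95 on the dexamethasone arrays. Every sutured array lay above every naïve one, and the anti-*Vegf* arrays were the tightest. *Casp4* was 2.01-fold, 2.34-fold and 2.3-fold higher in the 3 groups. The log2 differences from naïve corneas were 1.01 (standard error 0.18, adjusted p = 0.000855) with IgG, 1.23 (standard error 0.18, adjusted p = 0.000156) with anti-*Vegf* and 1.20 (standard error 0.18, adjusted p = 0.000213) with dexamethasone.

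*Casp12* (1387605_at) read 8.16, 8.34, 8.58 and 8.83 on the naïve arrays, 9.83, 9.76, 9.42 and 9.89 on the IgG arrays, 9.86, 10.01, 10.25 and 9.93 on the anti-*Vegf* arrays and 8.83, 9.63, 9.22 and 8.76 on the dexamethasone arrays. The IgG and anti-*Vegf* arrays were all above the naïve ones, while dexamethasone F30 fell below the highest naïve array and F25 was level with it. Relative to naïve corneas it differed by 1.25 (standard error 0.18, adjusted p = 0.000123) with IgG, 1.54 (standard error 0.18, adjusted p = 1.86e-05) with anti-*Vegf* and 0.63 (standard error 0.18, adjusted p = 0.0181) with dexamethasone. The last of these calls was lost without dexamethasone F26 (log2 0.46, adjusted p = 0.0665), naïve 1 (0.53, 0.0626) or naïve 2 (0.59, 0.0511), and in the fit of only these 2 groups (adjusted p = 0.0661).

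*Casp1* (1369186_at) read 8.11, 8.00, 8.31 and 8.64 on the naïve arrays, 9.29, 8.86, 8.56 and 8.89 on the IgG arrays, 9.15, 9.27, 8.95 and 9.28 on the anti-*Vegf* arrays and 8.36, 9.36, 8.67 and 8.86 on the dexamethasone arrays. Only the anti-*Vegf* arrays stood wholly apart from the naïve ones, while IgG F22 and dexamethasone F25 fell below the highest naïve array. Mean differences from naïve corneas were 0.63 (standard error 0.19, adjusted p = 0.0234) with IgG, 0.90 (standard error 0.19, adjusted p = 0.0026) with anti-*Vegf* and 0.54 (standard error 0.19, adjusted p = 0.0544) with dexamethasone. It was called with IgG and with anti-*Vegf*, and the IgG call was lost without IgG F17 (log2 0.50, adjusted p = 0.0792), naïve 1 (0.58, 0.0642) or naïve 2 (0.54, 0.0746). With dexamethasone its interval was 0.13 to 0.95, which includes the size seen with IgG.

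*Pycard* (1389873_at), the inflammasome adaptor also known as ASC, moved the other way and had the highest signal of this role. It read 11.53, 11.36, 10.82 and 11.07 on the naïve arrays, 9.74, 10.79, 10.28 and 10.51 on the IgG arrays, 9.78, 10.43, 9.94 and 10.45 on the anti-*Vegf* arrays and 10.76, 10.56, 10.66 and 10.11 on the dexamethasone arrays. Every sutured array was below the lowest naïve array. The log2 differences from naïve corneas were −0.86 (standard error 0.22, adjusted p = 0.00856) with IgG, −1.04 (standard error 0.22, adjusted p = 0.00233) with anti-*Vegf* and −0.67 (standard error 0.22, adjusted p = 0.0385) with dexamethasone. In dexamethasone treated corneas the call was lost without dexamethasone F26, F27 or F30 or naïve 1, 2 or 4, with adjusted p from 0.0503 to 0.122 and log2 differences from −0.72 to −0.54.

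**Figure D2:**
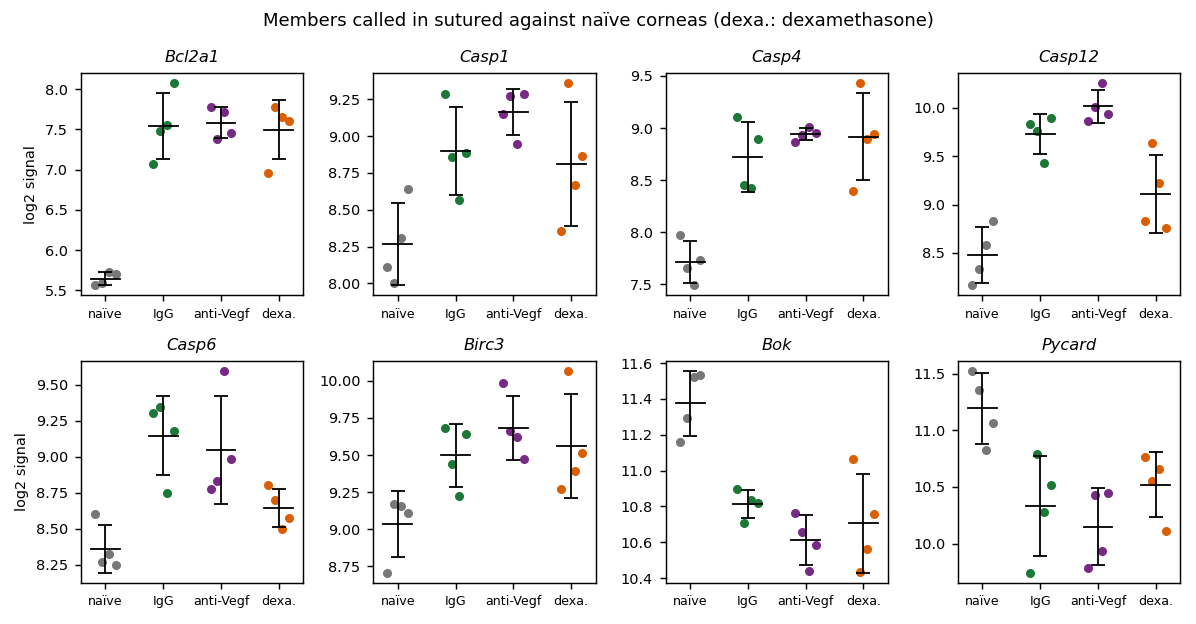
Log2 signal of 8 member genes on each of the 16 arrays (points, 4 per group), with the mean and SD of the group in black, each panel on its own axis. The sutured arrays of *Bcl2a1* and *Casp4* all lie above the naïve arrays and those of *Pycard* and *Bok* all lie below them, while *Casp6* with dexamethasone lies close to naïve.

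The caspases of the apoptotic cascade changed less. *Casp6* (1368305_at), an executioner that cuts lamins, read 8.60, 8.27, 8.32 and 8.25 on the naïve arrays, 9.31, 9.35, 8.75 and 9.18 on the IgG arrays, 8.78, 8.83, 9.60 and 8.98 on the anti-*Vegf* arrays and 8.80, 8.70, 8.50 and 8.58 on the dexamethasone arrays. IgG and anti-*Vegf* arrays were all above the naïve ones, and dexamethasone arrays overlapped them. Relative to the naïve group this gave log2 differences of 0.79 (standard error 0.17, adjusted p = 0.00235) with IgG, 0.69 (standard error 0.17, adjusted p = 0.00573) with anti-*Vegf* and 0.29 (standard error 0.17, adjusted p = 0.261) with dexamethasone. The anti-*Vegf* call was lost without anti-*Vegf* F6 (log2 0.50, below the fold limit). The initiators *Casp2*, *Casp8* and *Casp9* were called in no comparison with naïve corneas.

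*Casp2* (1367890_at), an initiator linked to the DNA damage response and the brightest of the 3, read 10.20, 10.25, 9.99 and 10.09 on the naïve arrays, 9.73, 9.73, 9.70 and 9.77 on the IgG arrays, 9.93, 9.84, 9.76 and 9.78 on the anti-*Vegf* arrays and 9.93, 9.73, 9.97 and 9.78 on the dexamethasone arrays. It was below every naïve array on all sutured arrays, but by less than 1.5-fold. The log2 differences from naïve corneas were −0.40 (standard error 0.08, adjusted p = 0.00135) with IgG, −0.30 (standard error 0.08, adjusted p = 0.00793) with anti-*Vegf* and −0.28 (standard error 0.08, adjusted p = 0.0152) with dexamethasone. *Casp8*, the caspase of the death receptors, differed by −0.08, −0.12 and −0.03 (standard error 0.14), and *Casp9*, the caspase of the apoptosome, by −0.10, −0.14 and −0.16 (standard error 0.10), none past the threshold. *Casp8ap2* (1393803_at), a nuclear protein that binds *Casp8* and is no caspase itself, read 8.05, 7.97, 7.66 and 7.62 on the naïve arrays, 7.67, 7.89, 7.59 and 7.76 on the IgG arrays, 7.83, 7.98, 8.10 and 8.02 on the anti-*Vegf* arrays and 7.87, 8.28, 8.45 and 7.87 on the dexamethasone arrays. The groups overlapped, with differences of −0.10, 0.15 and 0.29 (standard error 0.13). *Casp16*, a caspase of unsettled role, differed by 0.05, 0.07 and −0.05 and was among the 4 members whose mean log2 signal was under 5, beside *Bcl2l10*, *Bcl2l15* and *Bmf*.

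Among the survival members of the Bcl2 family, each read from its brightest probe set, *Bcl2a1* was called and the other 5 were not. A dimmer *Bcl2l1* probe set (1370485_a_at), described below, was called higher with IgG (0.93) and anti-*Vegf* (0.80). *Bcl2a1* (1368482_at), a short-lived survival protein of blood cells that is induced by NF-κB, read 5.56, 5.59, 5.72 and 5.71 on the naïve arrays, 7.07, 7.48, 7.55 and 8.07 on the IgG arrays, 7.77, 7.38, 7.72 and 7.45 on the anti-*Vegf* arrays and 6.96, 7.78, 7.65 and 7.60 on the dexamethasone arrays. The naïve arrays spanned less than 0.2 units and every sutured array was more than 1 unit above them. It was 3.73-fold, 3.83-fold and 3.61-fold higher, the largest difference of the 35 genes in each group. The log2 differences from naïve corneas were 1.90 (standard error 0.19, adjusted p = 4.07e-06) with IgG, 1.94 (standard error 0.19, adjusted p = 3.17e-06) with anti-*Vegf* and 1.85 (standard error 0.19, adjusted p = 5.14e-06) with dexamethasone. The call was kept in all 3 groups under each of the 26 settings in which it was retested. Those that dropped the fold limit or the adjustment could not lose it. The leukocyte genes named above moved with it, and their part was not tested.

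*Mcl1* (1372520_at), a survival protein with rapid turnover, was the brightest of all 35 genes and read 12.88, 12.96, 12.86 and 12.99 on the naïve arrays, 12.96, 12.92, 12.83 and 12.91 on the IgG arrays, 13.04, 13.02, 12.90 and 12.97 on the anti-*Vegf* arrays and 12.98, 12.83, 12.88 and 12.68 on the dexamethasone arrays. All groups overlapped, and the differences of −0.02, 0.06 and −0.08 (standard error 0.07) left intervals of −0.17 to 0.13, −0.10 to 0.21 and −0.23 to 0.07. *Bcl2* (1387611_at), the founding member, read 6.15, 6.46, 6.82 and 6.60 on the naïve arrays, 6.37, 6.50, 6.40 and 6.43 on the IgG arrays, 6.08, 6.28, 6.15 and 6.30 on the anti-*Vegf* arrays and 5.99, 5.93, 6.06 and 5.81 on the dexamethasone arrays. The signal was lowest with dexamethasone, where every array was below the naïve, IgG and anti-*Vegf* ones. Against naïve corneas it differed by −0.09 (standard error 0.11, adjusted p = 0.623) with IgG, −0.31 (standard error 0.11, adjusted p = 0.0521) with anti-*Vegf* and −0.56 (standard error 0.11, adjusted p = 0.00162) with dexamethasone. The dexamethasone difference passed the adjusted p but missed the fold limit. *Bcl2l2*, which encodes Bcl-w, differed by −0.25 (standard error 0.09, adjusted p = 0.0486), −0.43 (standard error 0.09, adjusted p = 0.00216) and −0.42 (standard error 0.09, adjusted p = 0.00287), and *Bcl2l1*, which encodes Bcl-xL, by 0.16, 0.14 and 0.13 (standard error 0.10). *Bcl2l10*, at a low signal, differed by −0.15, −0.08 and −0.06.

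Of the pore formers *Bok* was called lower and *Bak1* was not called. *Bok* (1373733_at), a pore-forming member that acts without BH3-only activation, read 11.16, 11.29, 11.52 and 11.53 on the naïve arrays, 10.90, 10.71, 10.84 and 10.82 on the IgG arrays, 10.77, 10.66, 10.44 and 10.59 on the anti-*Vegf* arrays and 11.07, 10.43, 10.56 and 10.76 on the dexamethasone arrays. All sutured arrays were below all naïve arrays. This was a log2 difference of −0.56 (standard error 0.12, adjusted p = 0.00325) with IgG, −0.76 (standard error 0.12, adjusted p = 0.000287) with anti-*Vegf* and −0.67 (standard error 0.12, adjusted p = 0.000948) with dexamethasone. It was called lower with anti-*Vegf* and dexamethasone and missed the fold limit with IgG. Its further probe set (1369084_a_at) was also called lower with anti-*Vegf*, at −0.64 (standard error 0.18, adjusted p = 0.0145), and with dexamethasone, at −0.74 (standard error 0.18, adjusted p = 0.00642). The dexamethasone call of the brighter probe set was lost without dexamethasone F26 (log2 −0.58, below the fold limit). *Bak1*, the other pore former measured, differed by 0.22 (standard error 0.13, adjusted p = 0.216), 0.39 (standard error 0.13, adjusted p = 0.0299) and 0.58 (standard error 0.13, adjusted p = 0.00312), with the last just short of the fold limit.

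Of the 6 BH3-only genes, which sense damage and engage the other members, *Bid* was called, with dexamethasone, and the other 5 were not. *Bid* (1377759_at), the link that *Casp8* cuts between death receptors and mitochondria, read 6.94, 6.77, 6.83 and 7.06 on the naïve arrays, 7.27, 7.19, 7.48 and 7.30 on the IgG arrays, 7.19, 7.20, 7.34 and 7.23 on the anti-*Vegf* arrays and 7.34, 7.91, 7.92 and 7.63 on the dexamethasone arrays. Every sutured array was above the highest naïve one, and dexamethasone F26, F27 and F30 were above all antibody arrays while F25 lay among them. Against naïve corneas the log2 difference was 0.41 (standard error 0.12, adjusted p = 0.0154) with IgG, 0.34 (standard error 0.12, adjusted p = 0.0403) with anti-*Vegf* and 0.80 (standard error 0.12, adjusted p = 0.000127) with dexamethasone. The dexamethasone difference of the mean of its 2 probe sets was 0.43, below the fold limit. *Bad* (1386991_a_at), whose phosphorylation links growth factor signals to survival, was the brightest BH3-only gene and read 9.34, 9.14, 9.31 and 9.33 on the naïve arrays, 9.41, 9.17, 9.55 and 9.46 on the IgG arrays, 9.46, 9.08, 9.42 and 9.32 on the anti-*Vegf* arrays and 9.29, 9.32, 9.39 and 9.30 on the dexamethasone arrays, with overlap among all groups and differences of 0.12, 0.04 and 0.05 (standard error 0.10).

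*Bbc3*, which encodes the p53 target Puma, had log2 differences of 0.50 (standard error 0.12, adjusted p = 0.00469), 0.41 (standard error 0.12, adjusted p = 0.0162) and 0.37 (standard error 0.12, adjusted p = 0.0306), below the fold limit throughout. *Bcl2l11*, which encodes Bim, had differences of −0.23, −0.30 and −0.22 (standard error 0.09), *Bik* of −0.07, −0.01 and 0.43 (standard error 0.17) and *Bmf* of 0.33, 0.23 and 0.16 (standard error 0.12). Among the Bcl2-like genes of other or unsettled role, *Bcl2l12* (1388846_at) was brightest and read 8.11, 8.09, 8.41 and 8.27 on the naïve arrays, 8.47, 8.22, 8.22 and 8.24 on the IgG arrays, 8.49, 8.17, 8.31 and 8.43 on the anti-*Vegf* arrays and 8.26, 8.40, 8.25 and 8.47 on the dexamethasone arrays. It overlapped in all groups, with differences of 0.07, 0.13 and 0.13. *Bcl2l14* differed by −0.16 (standard error 0.14, adjusted p = 0.418), −0.25 (standard error 0.14, adjusted p = 0.209) and −0.48 (standard error 0.14, adjusted p = 0.0186), below the fold limit, and *Bcl2l15* by 0.22, 0.19 and −0.07.

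The inhibitors of apoptosis were led by *Birc5* and *Birc3*. *Birc5* (1368799_at), which encodes survivin, a protein of mitosis as well as a caspase inhibitor, read 7.84, 7.71, 7.79 and 7.89 on the naïve arrays, 7.92, 8.05, 8.25 and 8.21 on the IgG arrays, 8.73, 8.21, 8.70 and 8.59 on the anti-*Vegf* arrays and 8.82, 8.57, 8.74 and 8.40 on the dexamethasone arrays. All sutured arrays were above all naïve ones, the IgG arrays by the least. On the log2 scale it differed from naïve corneas by 0.30 (standard error 0.12, adjusted p = 0.074) with IgG, 0.75 (standard error 0.12, adjusted p = 0.00023) with anti-*Vegf* and 0.82 (standard error 0.12, adjusted p = 0.00012) with dexamethasone. It was called with anti-*Vegf* and dexamethasone. *Birc3*, which encodes cIAP2, a ubiquitin ligase of TNF signalling and an NF-κB target, was called with anti-*Vegf*, and no comparison between treatments called it. Its log2 differences were 0.46 (standard error 0.17, adjusted p = 0.0508) with IgG, 0.65 (standard error 0.17, adjusted p = 0.0085) with anti-*Vegf* and 0.53 (standard error 0.17, adjusted p = 0.0312) with dexamethasone. The anti-*Vegf* call of *Birc3* was lost without anti-*Vegf* F1x (log2 0.55) or naïve 1 (0.54), both below the fold limit. Naïve 1 was also the lowest *Birc3* array, at 8.71 where the other naïve arrays read 9.17, 9.16 and 9.11.

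*Birc2* (1368291_at), which encodes cIAP1 and starts next to *Birc3* with 0 genes between them, was the brightest inhibitor and read 9.59, 9.52, 9.54 and 9.47 on the naïve arrays, 9.45, 9.34, 9.39 and 9.38 on the IgG arrays, 9.52, 9.43, 9.35 and 9.60 on the anti-*Vegf* arrays and 9.57, 9.59, 9.52 and 9.34 on the dexamethasone arrays. Its differences of −0.14, −0.06 and −0.02 (standard error 0.07) did not pass the test, although the IgG arrays were all just below the naïve ones. *Xiap*, the direct inhibitor of executioner caspases, differed by 0.32 (standard error 0.12, adjusted p = 0.0694), 0.35 (standard error 0.12, adjusted p = 0.0491) and −0.15 (standard error 0.12, adjusted p = 0.448). *Cflar*, the decoy of *Casp8* at death receptors, differed by 0.21, 0.32 and −0.06 (standard error 0.12), and *Birc7*, or livin, by −0.04, −0.03 and −0.07 (standard error 0.12). *Apaf1* (1369197_at), the scaffold of the apoptosome, read 8.97, 9.02, 8.62 and 8.60 on the naïve arrays, 8.98, 9.06, 8.78 and 9.26 on the IgG arrays, 9.04, 9.21, 9.03 and 8.93 on the anti-*Vegf* arrays and 9.29, 9.39, 9.35 and 8.91 on the dexamethasone arrays, with overlap among groups and differences of 0.22 (standard error 0.13, adjusted p = 0.242), 0.25 (standard error 0.13, adjusted p = 0.177) and 0.43 (standard error 0.13, adjusted p = 0.0236). *Diablo*, the mitochondrial antagonist of these inhibitors, had log2 differences of 0.27 (standard error 0.11, adjusted p = 0.0757), 0.34 (standard error 0.11, adjusted p = 0.0263) and 0.42 (standard error 0.11, adjusted p = 0.00958), below the fold limit.

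Dexamethasone against the antibodies sets the steroid against sutured corneas given an antibody. Between treatments a gene was called at an adjusted p under 0.05 with no fold limit. Relative to IgG, *Birc5* and *Bid* were higher and *Casp12*, *Bcl2* and *Xiap* lower with dexamethasone, which is 2 and 3 of 35 genes where 7.41% and 3.16% of all genes were called. Relative to anti-*Vegf*, *Bid* was higher and *Casp12* and *Xiap* lower, 1 and 2 of 35 beside 4.63% and 2.5%. The 2 comparisons share the dexamethasone arrays. On the reference gene scale the calls were 1 and 3 against IgG, where *Bid* was lost (adjusted p = 0.0524), and 1 and 1 against anti-*Vegf*, where *Xiap* was lost (adjusted p = 0.0586). Of all 14217 genes 1304 and 1183 were called on that scale. The member medians were −0.0347 and −0.0055, and those of all genes 0.0206 and 0.0249. With so few genes, 1 array could change the count. The first fell from 5 to 2 without IgG F19 or F23 and to 3 without IgG F17, anti-*Vegf* F7 or dexamethasone F26. The second fell from 3 to 1 without anti-*Vegf* F2 or dexamethasone F26.

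*Casp12* was 1.87-fold lower with dexamethasone than with anti-*Vegf*, a log2 difference of −0.90 (standard error 0.18, adjusted p = 0.00838), with every dexamethasone array below every anti-*Vegf* array in the values given above. This call was kept under each of the 26 settings, of which that at unadjusted p could not lose it. Relative to IgG the difference was −0.62 (standard error 0.18, adjusted p = 0.0411), and F26, the highest dexamethasone array, lay above the lowest IgG array. That call was lost without IgG F17, F19 or F23, anti-*Vegf* F2 or F7, or dexamethasone F25, F27 or F30, with adjusted p from 0.0508 to 0.11. *Casp1* and *Casp4* were called in neither comparison, with differences from IgG of −0.09 (interval −0.50 to 0.32) and 0.20 (interval −0.19 to 0.59). *Casp6* was −0.50 from IgG, with an adjusted p of 0.0691.

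*Xiap* (1379555_at) read 9.26, 9.42, 9.17 and 9.08 on the naïve arrays, 9.57, 9.52, 9.34 and 9.77 on the IgG arrays, 9.59, 9.65, 9.68 and 9.39 on the anti-*Vegf* arrays and 9.30, 9.05, 9.23 and 8.74 on the dexamethasone arrays. Every dexamethasone array was below every IgG and anti-*Vegf* array and within or below the naïve range. The differences were −0.47 (standard error 0.12, adjusted p = 0.0251) from IgG and −0.50 (standard error 0.12, adjusted p = 0.0243) from anti-*Vegf*. The first was lost without IgG F17, F19 or F23 or dexamethasone F26 or F30, with adjusted p from 0.0547 to 0.0756, and the second without anti-*Vegf* F1x, F2 or F6 or dexamethasone F26 or F30, with adjusted p from 0.0514 to 0.0727. Both were also lost in fits of only the groups compared (0.0648 and 0.0647).

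*Bcl2* was −0.48 (standard error 0.11, adjusted p = 0.0135) with dexamethasone relative to IgG, with no overlap between the arrays of these groups, and −0.25 (standard error 0.11, adjusted p = 0.194) relative to anti-*Vegf*. The call against IgG held without any single array. Of 11 T and NK cell genes 3 (*Cd3d*, *Cd3e* and *Cd5*) were also lower with dexamethasone than with IgG and 0 higher. Their list mean was low, at 4.68 to 4.888 on dexamethasone and 4.958 to 5.054 on IgG arrays. Relative to anti-*Vegf* 0 of the 11 were called. The part of these cells in the *Bcl2* difference was not tested. *Bid* was higher by 0.39 (standard error 0.12, adjusted p = 0.0426) than with IgG and by 0.46 (standard error 0.12, adjusted p = 0.0257) than with anti-*Vegf*, and dexamethasone F25 overlapped the antibody arrays. The first was lost without 11 of the 16 arrays taken singly, namely anti-*Vegf* F1x, F2 and F7, IgG F17, F19 and F23, dexamethasone F26, F27 and F30, and naïve 1 and 3, with adjusted p from 0.0506 to 0.131. The second was lost without anti-*Vegf* F1x, F2 or F7 or dexamethasone F26 or F27 (0.0578 to 0.081). The mean of the 2 *Bid* probe sets differed by 0.03 from IgG and 0.16 from anti-*Vegf*, neither past the threshold, and the dimmer one (1369683_at) had the opposite sign relative to IgG, at −0.33 (standard error 0.17, adjusted p = 0.245).

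**Figure D3:**
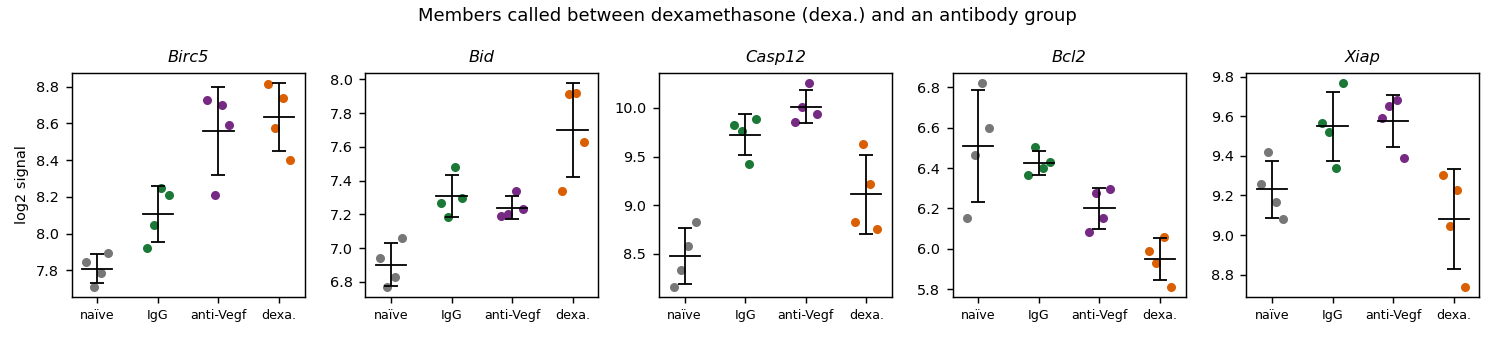
Log2 signal on each of the 16 arrays (points, 4 per group), with the mean and SD of the group in black, for the 5 members called between dexamethasone and an antibody group, each panel on its own axis. The dexamethasone arrays of *Bcl2* and *Xiap* lie below all IgG arrays, and those of *Birc5* lie above them.

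*Birc5* was 1.44-fold higher with dexamethasone than with IgG, at 0.52 (standard error 0.12, adjusted p = 0.011), and every dexamethasone array was above every IgG array. The call held without any single array. The difference from anti-*Vegf* was 0.07 (standard error 0.12, adjusted p = 0.776), with an interval of −0.18 to 0.33. Genes of dividing cells were higher in the same groups. Of 14 measured, 0 were called with IgG, 8 with anti-*Vegf* and 14 with dexamethasone relative to naïve corneas, and 14 were higher with dexamethasone than with IgG. Their summed signal was 3910 to 5680 on naïve, 4080 to 5540 on IgG, 6410 to 8240 on anti-*Vegf* and 6840 to 10100 on dexamethasone arrays. The part of dividing cells in the *Birc5* difference was not tested.

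**Figure D4:**
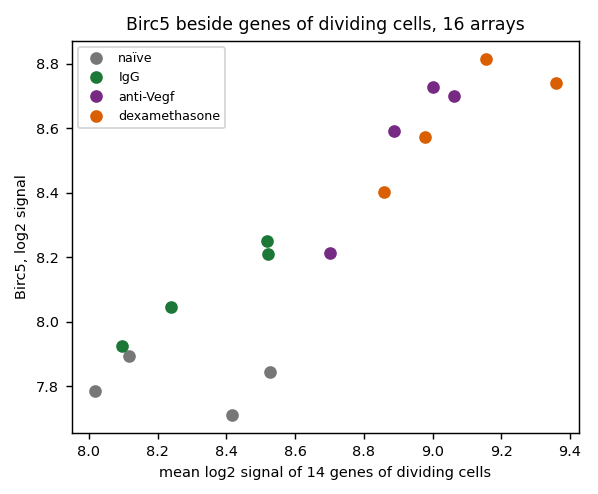
*Birc5* log2 signal against the mean log2 signal of 14 genes of dividing cells, 1 point per array and 16 arrays in 4 groups of 4. The dexamethasone arrays sit between 8.858 and 9.358 on the marker axis and at the upper end for *Birc5*, with 3 of the anti-*Vegf* arrays at like *Birc5* levels, and the naïve and IgG arrays lie lower on both axes.

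Of the members 13 had several probe sets, with 16 dimmer ones beside those of highest signal, and 14 of these 16 lay below 0 in dexamethasone relative to IgG. Some of the 16 are of the same gene. The share below 0 among such probe sets of all genes was not counted, and their median was also below 0. In dexamethasone against IgG 6 of the 16 were called lower and 0 higher, where 10.1% and 3.43% of the 6609 further probe sets of all genes were, and the medians were −0.374 and −0.0549. Against anti-*Vegf* 4 were lower and 0 higher (6.79% and 2.42%), with medians of −0.25 and −0.0403. *Xiap* was called lower by both of its probe sets, the dimmer one (1369248_a_at) at −0.56 (standard error 0.14, adjusted p = 0.0202) relative to IgG. For the other 5 genes the brightest probe set was not called.

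The largest was *Bcl2l1* (1370485_a_at), which read 5.46, 5.57, 5.81 and 5.76 on the naïve arrays, 6.57, 6.58, 6.53 and 6.62 on the IgG arrays, 6.95, 6.02, 6.58 and 6.23 on the anti-*Vegf* arrays and 5.85, 5.59, 5.62 and 6.04 on the dexamethasone arrays. The dexamethasone arrays overlapped the naïve ones and were below all IgG arrays. It was higher than naïve by 0.93 (standard error 0.16, adjusted p = 0.000503) with IgG and 0.80 (standard error 0.16, adjusted p = 0.00149) with anti-*Vegf*, and lower with dexamethasone than with IgG, at −0.80 (standard error 0.16, adjusted p = 0.00516). The brightest *Bcl2l1* probe set (1370812_at) differed from IgG by −0.03 (interval −0.25 to 0.18). The same split was seen for *Bcl2l2* (1369611_at, −0.61 (standard error 0.13, adjusted p = 0.00935)), *Casp9* (1388083_a_at, −0.50 (standard error 0.15, adjusted p = 0.0446)), *Apaf1* (1369198_at, −0.47 (standard error 0.10, adjusted p = 0.00678)) and *Mcl1* (1370141_at, −0.42 (standard error 0.10, adjusted p = 0.0125)). The brightest *Apaf1* probe set lay on the other side of 0 in this comparison, at 0.22. The control probe sets at the 5′ end of *Actb* and *Gapdh* relative to the 3′ end were also lower with dexamethasone than with IgG, by −0.464 and −0.309 log2 units (exact permutation test, 2-sided, p = 0.029 for each, the smallest that 4 against 4 arrays allow). Relative to anti-*Vegf* they were lower by −0.301 (p = 0.14) and −0.272 (p = 0.029, same exact test). Relative to naïve corneas these measures were higher with IgG, by 0.579 for *Actb* and 0.228 for *Gapdh* (exact p = 0.029 for each), and differed by 0.416 (exact p = 0.23) and 0.19 (exact p = 0.057) with anti-*Vegf*. Naïve arrays 1, 2, 3 and 4 were spread, at −1.69, −1.75, −0.87 and −0.82 for *Actb* and −0.43, −0.43, −0.19 and −0.16 for *Gapdh*. The part of these measures in the probe set differences was not tested.

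**Figure D5:**
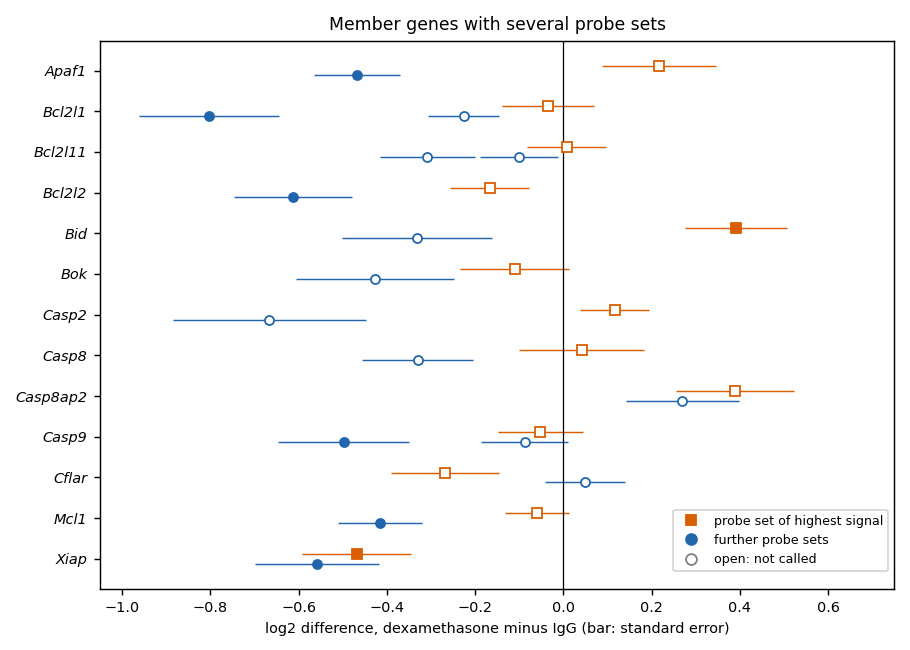
Log2 difference between dexamethasone and IgG treated corneas (4 arrays each) with its standard error, for the 13 member genes with several probe sets. Squares are the probe sets of highest signal and circles the further ones, and filled symbols were called, of which 6 are circles left of 0.

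Anti-*Vegf* against IgG, which asks whether the specific antibody differed from a control antibody, gave no member call. By limma 0 of the 35 genes had an adjusted p under 0.05, with 0% of all genes called higher and 0% lower, and an ordinary F test gave 0 as well. At an unadjusted p under 0.05 there was 1 member, *Birc5*, and 942 of all genes. *Birc5* differed by 0.45 (standard error 0.12, adjusted p = 0.368), and anti-*Vegf* F2 lay within the IgG range. The differences of the 35 genes ran from −0.22 (*Bcl2*) to 0.45 (*Birc5*), with a median of 0.0291, and all 95% intervals lay between −0.651 and 0.701. Differences of the size of *Bcl2a1* or *Casp4* against naïve corneas fall outside all of these intervals.

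Genes around the members were counted by lists of known pathway genes. Of all genes, 6.32% (IgG), 6.82% (anti-*Vegf*) and 8.19% (dexamethasone) were called higher than naïve, and 5.02%, 5.94% and 4.45% lower. With dexamethasone 7.41% of all genes were higher and 3.16% lower than with IgG, and 4.63% and 2.5% than with anti-*Vegf*. The counts below stand beside these shares. Of 16 death receptor genes and adaptors, 3, 3 and 4 were called higher in IgG, anti-*Vegf* and dexamethasone treated corneas and 0 lower. They were *Ripk3*, the kinase of necroptosis, at 1.65, 1.80 and 1.68, *Tnfrsf12a*, the TWEAK receptor, at 1.72, 1.78 and 1.59, and *Tnfrsf1a*, the main TNF receptor, at 0.90, 0.87 and 0.79, joined with dexamethasone by the TWEAK gene *Tnfsf12* at 0.65. *Tnfsf12* was also higher with dexamethasone than with IgG, at 0.51 (standard error 0.13, adjusted p = 0.025), and than with anti-*Vegf*, at 0.58 (standard error 0.13, adjusted p = 0.018), the single call of 16 in each. The list medians against naïve were 0.149, 0.116 and 0.16.

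Of 10 inflammasome sensors, gasdermins and substrates, 3 were higher in each group: *Il1b*, the cytokine that *Casp1* matures, at 3.65, 3.66 and 3.45, *Gsdmd*, the pore that inflammatory caspases open, at 0.80, 0.94 and 1.07, and *Mefv*, or pyrin, at 0.70, 0.65 and 0.79. *Nek7*, a partner of the NLRP3 inflammasome, was lower with IgG (−0.69) and dexamethasone (−0.61). Between dexamethasone and either antibody 0 of the 10 were called by limma. Of 14 p53-related genes, *Sesn1*, a stress-induced regulator of growth signalling, was lower in all 3 groups (−0.999, −0.98 and −0.78) and *Mdm2*, the ligase of p53, was higher with IgG (0.62). Relative to IgG, dexamethasone treated corneas had higher *Cdkn1a*, the cell cycle inhibitor p21, at 0.53 (standard error 0.11, adjusted p = 0.00695), and *Ei24*, and lower *Gadd45a*, a DNA damage response gene, at −0.59 (standard error 0.13, adjusted p = 0.00998), and *Tp53inp1*.

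Of 16 other survival regulators, *Tnfaip3*, the NF-κB brake A20, was higher in all 3 groups (1.03, 0.83 and 1.55) and higher with dexamethasone than with IgG, at 0.51 (standard error 0.14, adjusted p = 0.0349), or anti-*Vegf*, at 0.71 (standard error 0.14, adjusted p = 0.00907). *Bag1* and *Dad1* were higher and the survival kinase gene *Pim1* lower with dexamethasone than with either antibody, *Pim1* by −0.95 (standard error 0.15, adjusted p = 0.00126) relative to IgG. *Bag3* and *Pim3* were lower with anti-*Vegf* relative to naïve corneas. The next list held 9 genes of calpains, proteases that act beside caspases, and of their inhibitor calpastatin (*Cast*). *Capn6* was lower with IgG (−0.67) and anti-*Vegf* (−0.77) and *Capn1* with anti-*Vegf* (−0.59) and dexamethasone (−0.60). *Cast* was called in no comparison. Of 15 mitochondrial and nuclear effectors, 0, 0 and 1 (*Septin4*, at 0.66 with dexamethasone) were called against naïve corneas, and *Bnip3l*, a mitophagy receptor, was lower with dexamethasone than with IgG, at −0.33 (standard error 0.08, adjusted p = 0.0131), and anti-*Vegf*, at −0.40 (standard error 0.08, adjusted p = 0.00608). The list medians against naïve corneas lay between −0.281 (calpains and calpastatin, anti-*Vegf*) and 0.16 (death receptors, dexamethasone).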

How the data were processed

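RNA from 16 single corneas, 4 per group, was hybridised to rat Affymetrix 3′ arrays, 1 array per cornea. Each deposited value is the log2 signal of a probe set, which the authors made with Affymetrix Expression Console by RMA, which corrects background, normalizes between arrays and summarises probes. The study's methods also name an Affymetrix transcription console. What significance test they ran is not given in the sources read. After removal of 57 control probe sets, 31042 were fitted together with limma 3.58.1 under R 4.3.3, each group having its own mean, which left 12 residual degrees of freedom, with moderated variances and Benjamini-Hochberg adjustment. Of these, 20826 had 1 gene symbol, 436 had several and 9780 had none, and a gene was read from its probe set of highest mean signal. Against naïve corneas a call needed an adjusted p under 0.05 and 1.5-fold, and between treatments the adjusted p alone. Array controls were compared by exact permutation tests. The procedure was tested on simulated data. Alternatives changed the moderation, the arrays fitted, array weights, normalization (cyclic loess, or centring on *B2m*, *Hprt1*, *Rplp0*, *Tbp*, *Ywhaz* and *Sdha*), a filter at the 40th percentile on at least 4 arrays, the probe set used, the thresholds and each array in turn. Values per array were given for called genes that led their comparison and for the brightest gene of each role, and *Casp1* and the dimmer *Bcl2l1* probe set were added after their values were seen. The members and gene lists were chosen with earlier results of these data known. The number of arrays limits the precision.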

Additional observations from a re-analysis of the deposited data

Results flagged for a closer look

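In 140 sets of 4 arrays (35 genes in 4 groups), 4 held an array that stood apart from the other 3 by more than Dixon's 95% limit, and chance alone would give about 1 in 20. *Bad* in naïve 2 read 9.1369, below 9.3091 to 9.3371 on the other naïve arrays. *Bcl2l11* in naïve 4 read 8.5589, below 8.6976 to 8.705. *Bcl2l12* in IgG F17 read 8.4745, above 8.2202 to 8.2412 on the other IgG arrays. *Birc3* in naïve 1 read 8.708, below 9.1109 to 9.173, and the call of *Birc3* with anti-*Vegf* was lost without that array (log2 0.54). The other 3 genes were called in no comparison.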

How the results depend on the processing

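Of the 30 called gene differences, none changed direction. With an array left out 430 retests stayed past their threshold and 50 did not, and under other settings 270 did and 30 did not. *Bcl2a1* and *Casp4* in all 3 comparisons with naïve corneas, *Casp12* with IgG, with anti-*Vegf* and between dexamethasone and anti-*Vegf*, *Casp1*, *Bok* and *Pycard* with anti-*Vegf*, *Pycard* with IgG and *Birc5* with dexamethasone held under all 26 settings. Against naïve corneas, dropping the fold limit or the adjustment could not lose a call. Leaving out an array of a group not compared left the means compared unchanged. For a gene with 1 probe set, the mean of its probe sets held the same values. Counts of called members moved by over 1.5 times in these cases. With no fold limit the counts against naïve corneas were 11 (IgG), 17 (anti-*Vegf*) and 16 (dexamethasone) of 35. Of all 14217 genes 4145, 4351 and 4049 were then called. With a fold limit of 1.5 dexamethasone had 1 call against IgG and 1 against anti-*Vegf*, beside 456 and 389 of all genes. Dexamethasone against IgG gave 3 calls with the unmoderated F statistic, 2 with these groups fitted alone, 12 at unadjusted p and 10 when any probe set counted. Of all genes 1340, 1067, 3606 and 2169 were called under these settings. Dexamethasone against anti-*Vegf* gave 1 with these groups fitted alone, 7 at unadjusted p and 6 when any probe set counted, beside 544, 3234 and 1478 of all genes. Anti-*Vegf* against IgG gave 1 at unadjusted p, beside 942 of all genes. With 1 array left out the counts ran from 6 to 6 (IgG), 8 to 9 (anti-*Vegf*) and 4 to 10 (dexamethasone) against naïve corneas, from 2 to 6 for dexamethasone against IgG, 1 to 3 for dexamethasone against anti-*Vegf* and 0 to 0 for anti-*Vegf* against IgG. Dropping the fold limit or the adjustment widens the criterion by construction, and the cause of the other shifts was not tested. No paired analysis was possible because the groups share no replicate numbers. Probe sets near background limit *Casp16*, *Bmf*, *Bcl2l10* and *Bcl2l15*.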
